A study of Mus musculus with 6 samples.

Results

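The nuclear genes for the subunits of respiratory complex I were examined in Setd5+/- and WT neural stem cells (NSCs) grown at 21% oxygen. Members were the rows of the deposited expression table whose gene symbol is Ndufa, Ndufb, Ndufc, Ndufs or Ndufv followed by digits, plus Ndufab1. This rule took 38 of the 53110 rows. A second row for Ndufs3 holds no values, and the 36 genes described here all passed the filter for testing. Ndufb1, the remaining subunit of the distal membrane arm, was not found under that symbol in the table. The cells were NSCs derived from the mouse embryonic cortex and grown in medium with EGF and bFGF. They were routinely kept as neurospheres in suspension, and were seeded as adherent cells for the RNA. The mutant cells carry 1 disrupted copy of Setd5, made with CRISPR-Cas9, and the WT cells carry none. The deposited column names place all Setd5+/- values in 1 clone, and each genotype in 1 index and 1 sequencing lane.

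Complex I (NADH:ubiquinone oxidoreductase) is the entry point of electrons from NADH into the respiratory chain of the inner mitochondrial membrane. It is L-shaped. In the matrix arm, the N module oxidises NADH and the Q module passes the electrons over iron-sulfur clusters to ubiquinone, and the membrane arm pumps protons. Core subunits carry out these reactions. Accessory subunits surround them, and many are needed for assembly and stability. The core of the membrane arm is encoded in mitochondrial DNA, and all other subunits are imported after translation from nuclear mRNAs. Proliferating neural progenitors lean on glycolysis, and the respiratory chain gains weight as they differentiate into neurons.

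The labels give 3 samples per genotype, but the 3 samples of a genotype differed little. The variance of their reads over the mean was 1.95 in WT and 1.92 in Setd5+/-, against 65.0 to 65.4 between a WT and a Setd5+/- sample. Sampling alone gives 1 when reads are counted singly and 2 when both reads of every pair are counted. The read counter is not given in the sources used here, but values of 2 reads were more frequent than values of 1 read (6488 against 1575 in WT, 6015 against 1554 in Setd5+/-), and 75.8% and 74.3% of the values of 1 to 10 reads were even. With the shared index and lane, the samples were treated as parts of 1 library per genotype, and each genotype counted as 1 sample. Genotype, clone, library and lane cannot be told apart. The limma p-values below compare the reads of 2 libraries, and the intervals cover counting error alone. Each WT sample held between 9995980 and 10004948 reads on genes and each Setd5+/- sample between 7143309 and 7146147. Setd5 itself was at 2498, 2749 and 2780.1 normalized counts in WT and at 2151, 1989.9 and 2055 in Setd5+/-, a log2 difference of −0.37 (95% counting interval −0.44 to −0.305), so its mRNA was lower in the mutant library and did not overlap with WT. The summed level of 6 NSC markers (Nes, Sox2, Pax6, Vim, Fabp7, Msi1) was 51590 to 52029 in WT and 31035 to 31258 in Setd5+/-, with 4 of them lower and 2 higher. Most of that sum is Fabp7, and the other 5 summed to 15687 to 15797 in WT and 19467 to 19874 in Setd5+/-, the opposite direction. The 5 neuron markers summed to 10321 to 10693 and 12632 to 12751, with 1 lower and 1 higher of 4 tested. Without Map2 they summed to 478 to 498 and 238 to 272, and Dcx went from a mean of 248 to 26.2. The 5 astrocyte markers summed to 21650 to 21932 and 22192 to 22700, with 1 lower and 3 higher. Without Slc1a3 they summed to 788 to 808 and 1236 to 1397, and Gfap went from 17.1 to 263, Aqp4 from 57.7 to 187 and S100b from 339 to 737. The 4 oligodendrocyte markers summed to 467 to 505 and 240 to 253, with 2 lower and 1 higher of 3 tested, and Sox10 went from 298 to 1.59. The 4 microglia markers summed to 78.6 to 119 and 48.9 to 70.3, with the 1 tested lower. Mesenchymal markers summed to at most 14.3 and endothelial markers to at most 4.14 in any sample. Cx3cr1 of the microglia list was at 0 in both genotypes, and Rbfox3 of the neuron list, Mog of the oligodendrocyte list and P2ry12 of the microglia list were at 0 in Setd5+/-. Whether the cell types behind these sums have a part in the results below was not tested.

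Most complex I subunit mRNAs were lower in the Setd5+/- library. Of the 36 genes, 26 were lower and 2 higher (limma, adjusted p under 0.05), and 8 did not pass. Over all 16266 genes tested, 30.9% were lower and 30.3% higher, so the share of members called lower was 72.2% against this background and the share called higher was 5.56%. A change of at least 1.5-fold downward was seen in 14 members, against 15.8% of all genes. No member was at least 1.5-fold higher, against 19.6% of all genes. The samples of the genotypes did not overlap in 27 of the 36 members and in 10621 of the 16266 tested genes, so a lack of overlap was common. The log2 difference (Setd5+/- minus WT) was below 0 in 32 of the 36. Its median over the members was −0.49, from −1.035 for Ndufa5 to 0.31 for Ndufb3, and over all tested genes it was −0.02. Among genes with a WT mean of at least 100 normalized counts, 25 of 32 members and 39.4% of all genes were lower. Fewer cells of a type and less RNA per cell cannot be told apart in such bulk samples. Summed over the members, the normalized counts went from 18864 in WT to 14944 in Setd5+/-.

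**Figure D1:**
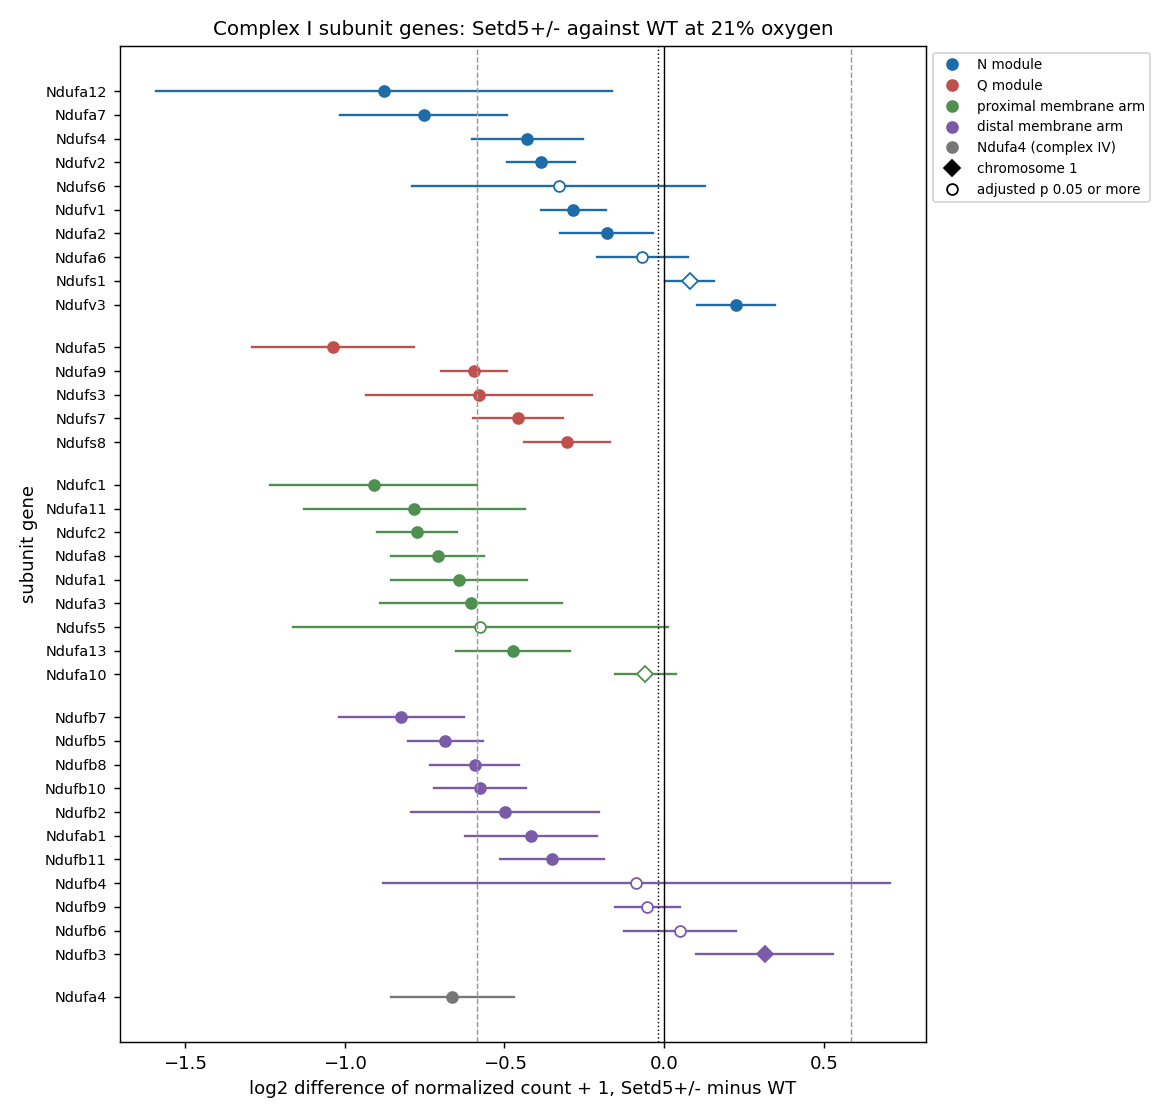
Log2 difference of each complex I subunit gene (x axis, Setd5+/- minus WT, on the log2(normalized count + 1) scale), grouped by module, with 95% counting intervals as lines. Filled symbols passed the limma threshold, diamonds are genes on chromosome 1, the dotted line is the median of all tested genes (−0.02) and the dashed lines mark 1.5-fold. Of the 36 symbols, 32 lie left of 0, and the 2 filled ones to the right are Ndufb3 and Ndufv3.

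Members were lower in every module. In the N module 6 of 10 members were lower and 1 higher, with a median of −0.31. In the Q module all 5 described here were lower, with a median of −0.58. In the proximal membrane arm 7 of 9 were lower and none higher, with a median of −0.64, and 6 of the 14 members past 1.5-fold lie here. In the distal membrane arm 7 of 11 were lower and 1 higher, with a median of −0.42. By arm, the 15 genes of the matrix arm had a median of −0.39 and the 20 of the membrane arm −0.58. The 6 core subunits described here had a median of −0.35 and none of them passed 1.5-fold, whereas the 30 accessory subunits, Ndufa4 included, had a median of −0.58 and hold all 14 that did. The core subunit Ndufs3 lay just short of that limit, at −0.579. It passed with TMM scaling (−0.605), upper-quartile scaling (−0.589) or pseudogene values added (−0.595), and lay further from it after recentring by transcript length (−0.463). Core transcripts are also longer, with a median of 1353.5 bases against 747.5 for the accessory subunits. Whether length has a part in this contrast was not tested. These medians describe the members. No test of one module against another was made.

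The 3 core subunits of the N module take up the electrons of NADH. Ndufv1, which binds NADH and the flavin that accepts its electrons, was at 1173, 1137.5 and 1061 normalized counts in WT and 947.5, 941 and 878 in Setd5+/-. Every Setd5+/- sample lay below every WT sample, with a log2 difference of −0.285 (95% counting interval −0.39 to −0.18, adjusted p = 2.75e-05). Ndufv2, an iron-sulfur subunit next to it, was at 1070.5, 1100.3 and 1104 in WT and 878, 814.5 and 812 in Setd5+/-, again without overlap, at a difference of −0.39 (−0.49 to −0.28, adjusted p = 2.04e-07). Ndufs1, the largest subunit of the module, which carries several iron-sulfur clusters and lies on chromosome 1, did not differ beyond the threshold. It was at 1772, 1746 and 1578 in WT and 1790.1, 1852 and 1738 in Setd5+/-. The samples overlapped, and the difference was 0.08 (0.0025 to 0.16, adjusted p = 0.109).

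Among the accessory subunits of the N module, Ndufa12 had the largest fitted difference, but on few reads. It was at 33.2, 31.4 and 22.4 normalized counts in WT and 17.9, 7.15 and 26.2 in Setd5+/-, from 105 and 43 reads, and the samples of the genotypes overlapped. The difference of −0.88 (−1.59 to −0.164) passed with an adjusted p of 0.0462, and no longer passed in 8 of the alternatives tried, among them those without Setd5+/- replicate 2 (−0.38), Setd5+/- replicate 1 (−0.99), WT replicate 1 (−0.77) or WT replicate 2 (−0.81). Ndufa7 was lower as well, at −0.75 (−1.01 to −0.49), and so was Ndufs4, which is needed for a stable N module and whose loss in mice gives a Leigh-like encephalopathy, at −0.43. Ndufa2, with a thioredoxin-like fold, was lower by a small margin, at −0.18 (−0.33 to −0.035). Ndufs6, a zinc-binding subunit, at −0.33 and Ndufa6, which anchors an acyl carrier protein, at −0.07 did not pass. Ndufv3 was the highest of the module and the one member outside chromosome 1 that was called higher. It was at 687, 623 and 635 in WT and 763, 761 and 746 in Setd5+/-, without overlap, a difference of 0.22 (0.10 to 0.345, adjusted p = 0.0018).

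The Q module held the lowest difference. Ndufa5 (GRCm38 chr6:24518666-24528013), an accessory subunit of the matrix arm, fell the most of all 36. It was at 266, 266 and 252 normalized counts in WT and 133.5, 146.5 and 105 in Setd5+/-. No Setd5+/- sample came near the WT samples, and the level was 2.05-fold lower (−1.035, −1.29 to −0.78, adjusted p = 4.49e-08).

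Core subunits of the Q module were lower by less. Ndufs7 lies at the ubiquinone pocket and carries the last iron-sulfur cluster of the chain. It was at 638, 677.6 and 637 in WT and 504.2, 439 and 479 in Setd5+/-, without overlap (−0.46, −0.60 to −0.32, adjusted p = 1.61e-06). Ndufs8, which also holds iron-sulfur clusters, was at 682.5, 699.9 and 603 in WT and 537.5, 549 and 518 in Setd5+/-, without overlap (−0.30, −0.44 to −0.17, adjusted p = 0.000306). Ndufs3, a core subunit with no cofactor, was at 105, 104 and 113.5 in WT and 83.4, 60.7 and 72.7 in Setd5+/-. Here too all Setd5+/- samples were below all WT samples, but from 390 and 182 reads the interval is wider (−0.58, −0.93 to −0.23, adjusted p = 0.00397). Ndufa9, which binds NADPH at the joint of the arms, was lower at −0.59 (−0.70 to −0.49).

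**Figure D2:**
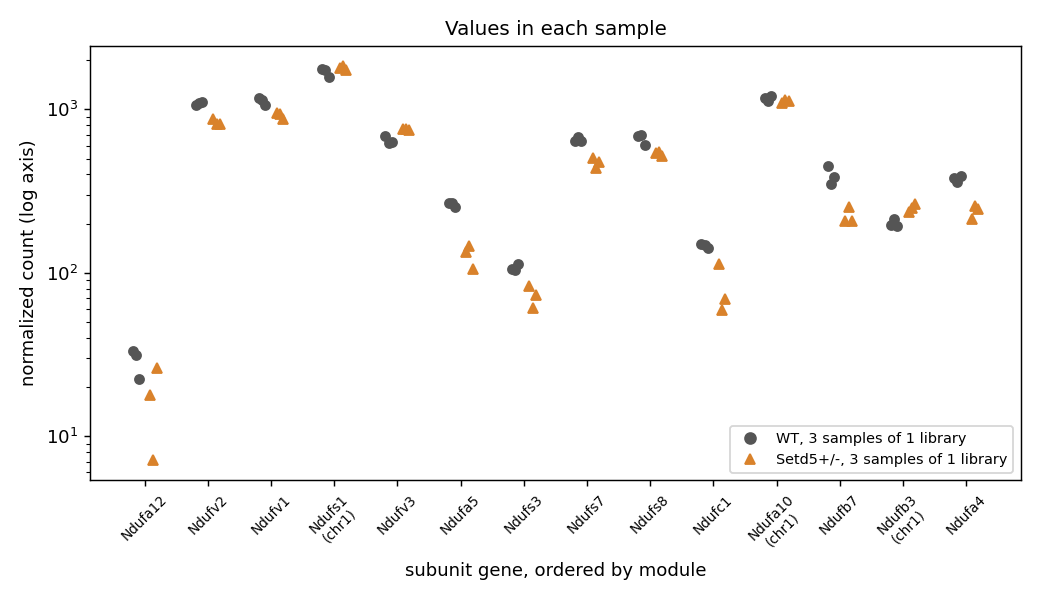
Normalized count of 14 subunit genes in each sample (y axis, log scale; x axis, genes ordered by module): 6 core subunits, the lowest and highest difference of each module and every member on chromosome 1. Circles are the 3 WT samples and triangles the 3 Setd5+/- samples. The triangles lie below the circles in Ndufa5, Ndufc1, Ndufb7 and Ndufa4, and above them in Ndufb3 and Ndufv3.

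In the proximal membrane arm all 9 members had a difference below 0. The largest was that of Ndufc1, a small membrane subunit, at 149, 149 and 142 normalized counts in WT and 113, 59.5 and 69.1 in Setd5+/-. The samples did not overlap, although Setd5+/- replicate 1 stood above the other two, and the level was 1.88-fold lower (−0.91, −1.23 to −0.585, adjusted p = 9.14e-05). Its partner Ndufc2 went from a mean of 945 to 553 (−0.77, −0.90 to −0.65). Ndufa11 (−0.78), Ndufa8 of the intermembrane space (−0.71), Ndufa1 (−0.64) and Ndufa3 (−0.61) were also at least 1.5-fold lower, and Ndufa13, also known as GRIM-19, was lower by less (−0.47). Ndufs5 did not pass, at −0.576 (−1.16 to 0.01) from 143 and 66 reads. Ndufa10, which has the fold of a nucleoside kinase, was the highest of this arm, at 1181, 1120.2 and 1202.5 in WT and 1087, 1141 and 1132 in Setd5+/-. These values overlapped, and the difference of −0.06 (−0.16 to 0.035) did not pass (adjusted p = 0.27). Ndufa10 is the member of this arm on chromosome 1.

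The distal membrane arm is built around mitochondrially encoded subunits at the far end of the complex. Its largest fall was that of Ndufb7, an intermembrane-space subunit, at 451, 351 and 383 normalized counts in WT and 207, 254 and 207 in Setd5+/-. There was no overlap, and the level was 1.77-fold lower (−0.82, −1.02 to −0.63, adjusted p = 9.79e-08). Ndufb5 (−0.685) and Ndufb8 (−0.59) were also at least 1.5-fold lower. Ndufb10 (−0.58), Ndufb2 (−0.50), Ndufb11 (−0.35) and the mitochondrial acyl carrier protein Ndufab1 (−0.42), which also serves fatty acid synthesis and iron-sulfur cluster assembly, were lower by less. Ndufb9 (−0.05, −0.16 to 0.05), Ndufb6 (0.05, −0.13 to 0.225) and Ndufb4 (−0.09, −0.88 to 0.705) did not pass, and the interval of Ndufb4, with 64 and 40 reads, would allow a change of 1.5-fold either way. Ndufb3 was the highest of this arm, at 196, 213 and 192 in WT and 236, 248 and 263 in Setd5+/-. It was higher without overlap (0.31, 0.10 to 0.53, adjusted p = 0.0101), and it is on chromosome 1.

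Ndufa4 keeps its complex I symbol but is now placed with complex IV. It was at 379, 357 and 392.5 in WT and 213, 256 and 244 in Setd5+/-. It was lower without overlap (−0.66, −0.856 to −0.47, adjusted p = 6.08e-07). Around the 1.5-fold limit, Ndufa9 (1.51-fold) and Ndufb8 (1.51-fold) lie just inside, while Ndufs3 (1.49-fold), Ndufb10 (1.49-fold) and Ndufs5 (1.49-fold) lie just outside. The count of members past 1.5-fold was 8 when the differences were recentred on genes of like transcript length.

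None of the members described here on chromosome 1, which are Ndufs1, Ndufa10 and Ndufb3, was lower, and their log2 differences of 0.08, −0.06 and 0.31 have a median of 0.08. Of the 33 members on other chromosomes, 26 were lower and 1 higher, with a median of −0.58 against −0.04 for all 15211 tested genes outside chromosome 1. Of those 15211 genes, 32.4% were lower and 28.1% higher. Chromosome 1 as a whole was higher in the Setd5+/- library, with a median of 0.53 over its 1044 tested genes, of which 63.2% were higher and 9.67% lower. All 3 members lie below that median. Ndufa10 and Ndufb3 have the highest difference in their parts of the membrane arm, and Ndufs1 the next highest after Ndufv3 in the N module. Whether the higher level of chromosome 1 genes as a whole has a part in these 3 values was not tested.

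Levels within the complex were compared per kilobase of the principal transcript, since raw normalized counts grow with length, from the values on the gene itself. In WT they ran from 18.2 (Ndufb4) to 1425 (Ndufb9) normalized counts per kb. The highest levels in WT were those of Ndufb9, Ndufc2 (1384) and Ndufb8 (1038). In Setd5+/- Ndufb9 was again at the top with 1377 per kb, followed by Ndufa6 at 843 and Ndufa2 at 819, with Ndufc2 further down at 809.9. Of the core subunits, Ndufv1, Ndufv2, Ndufs1, Ndufs7 and Ndufs8 were at similar levels in WT, between 638 and 677 per kb. In Setd5+/- the same 5 spread from 482 (Ndufs7) to 674 (Ndufs1). Ndufs3 was at 103 in WT. The 6 members under 100 per kb in WT were Ndufb4, Ndufa12, Ndufb2, Ndufs5, Ndufab1 and Ndufs6, and each of the 6 has a near-identical pseudogene, as do 7 members above that level. The order turns on where reads of such genes were counted. With the values on the pseudogenes added, Ndufs3 came to 1059 per kb in WT, above the other core subunits described here, and Ndufa4 (1117), Ndufb11 (1080.0) and Ndufs3 stood above Ndufb8. Ndufb4 (21.6), Ndufab1 (87.0) and Ndufb2 (89.1) stayed under 100 per kb. The principal transcripts used for Ndufb2 and Ndufab1 are 4371 and 3479 bases long, against a median of 891.5 over the members. A single exon makes up 3991 and 2936 of these bases. The low levels per kb of Ndufb2 and Ndufab1 rest on these lengths, and levels on another transcript of either gene were not computed.

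Processed pseudogenes, which are intron-less copies of an mRNA in the genome, bear on what was counted for 13 members. They have 18 pseudogenes of at least 90% identity over at least 200 bases of the member's transcript. Bowtie2, the aligner used, does not split a read over an intron, whereas such a copy holds the joined exons in 1 piece. The normalized counts on 7 of the 18 were above those on the gene itself. Ndufa12 had a WT mean of 29.0 and its pseudogene Gm15920 one of 646, which is 22.3 times as much. Ndufs5 and BC002163 stood at 39.5 and 426, Ndufs3 and Gm12251 at 108 and 999, and Ndufs6 and Gm6415 at 56.3 and 202. How many reads of each gene landed on its copies was not tested.

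How alike a gene and its copy are is shown by a stretch of each. They are from the transcripts of Ndufa12 (chromosome 10, plus strand) and Gm15920 (chromosome 5, plus strand, within an intron of Rabgef1) in GENCODE M21 on GRCm38, 120 coding bases around the junction of exons 2 and 3. The gene's stretch spans chr10:94199973-94203347 with its intron and the copy's chr5:130188468-130188587 without one. Capitals mark 10 bases on each side of the junction. The stretches differ at 1 of the 120 bases, and the whole copy differs at 2 of 402 aligned bases.
Ndufa12: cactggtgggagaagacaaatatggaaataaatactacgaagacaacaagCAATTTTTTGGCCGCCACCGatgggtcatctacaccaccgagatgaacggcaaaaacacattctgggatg
Gm15920: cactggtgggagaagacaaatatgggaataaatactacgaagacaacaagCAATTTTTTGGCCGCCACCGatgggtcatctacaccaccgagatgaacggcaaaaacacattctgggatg

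The same holds for the core subunit Ndufs3 (chromosome 2, minus strand) and Gm12251 (chromosome 11, minus strand, overlapping no other gene). The stretch around the junction of exons 4 and 5 spans chr2:90898703-90902422 in the gene and chr11:58393123-58393242 in the copy, read on the minus strand. It differs at 1 of 120 bases, and the whole copy at 11 of 792.
Ndufs3: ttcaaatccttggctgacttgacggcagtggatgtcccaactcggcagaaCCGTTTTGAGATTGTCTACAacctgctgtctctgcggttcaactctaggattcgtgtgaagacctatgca
Gm12251: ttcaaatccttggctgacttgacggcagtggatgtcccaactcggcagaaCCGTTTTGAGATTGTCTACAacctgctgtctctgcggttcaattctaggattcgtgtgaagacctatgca

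The pseudogenes were mostly lower in Setd5+/- as well. Of the 13 that could be tested, 9 were lower, none higher and 4 did not pass, against 30.9% lower over all genes. Gm15920 had a log2 difference of −0.69, Gm12251 of −0.60, BC002163 of −0.54 and Gm13186, a copy of Ndufb2, of −1.08. With the values of gene and copies added up, Ndufa12 was at 675 in WT and 418 in Setd5+/- (−0.69, 95% counting interval −0.84 to −0.55). Of these sums, 646 and 401 are values on Gm15920, and those on Ndufa12 itself rest on 105 and 43 reads. Ndufs3 came to −0.59 (−0.71 to −0.48), Ndufs5 to −0.55 (−0.71 to −0.38) and Ndufb2 to −0.83 (−1.03 to −0.63). Ndufb3, higher on its own, came to 0.21 (0.0018 to 0.41) and did not pass, with its copy AC127582.1 at −0.83. With all sums in place 28 of the 36 members were lower and 1 higher. The 23 members without such a copy had a median of −0.46, with 17 lower and 1 higher.

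**Figure D3:**
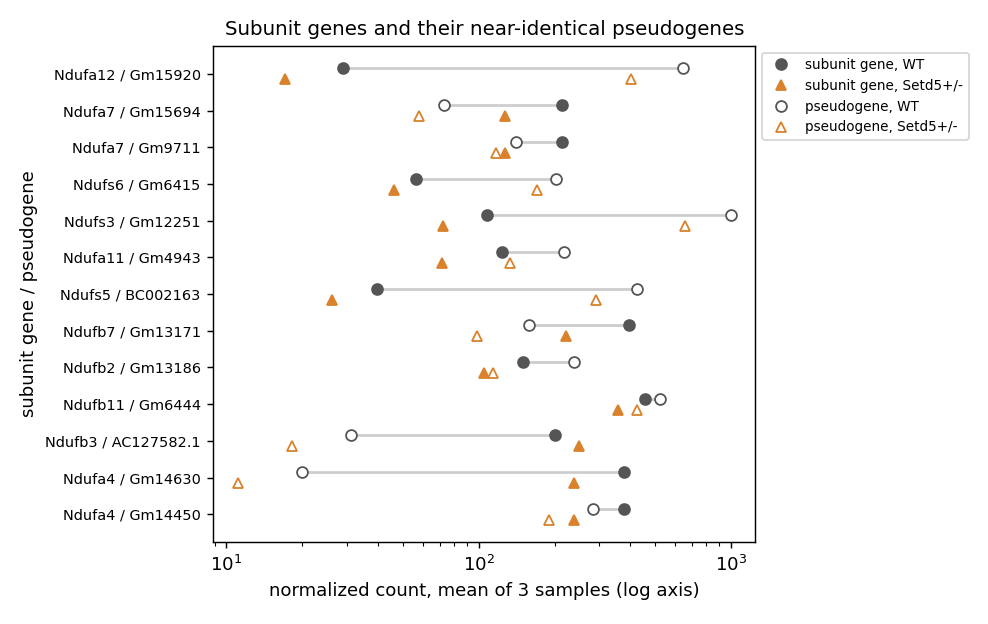
Mean normalized count (x axis, log scale, mean of 3 samples of 1 library) of subunit genes (filled) and of their near-identical pseudogenes with a WT mean of at least 10 (open), in WT (circles) and Setd5+/- (triangles). For Ndufa12, Ndufs3, Ndufs5 and Ndufs6 the open symbols lie far to the right of the filled ones, and in every row except that of Ndufb3 both kinds have lower values in Setd5+/-.

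Other genes overlap the exons of 14 members. The largest shares were 257 of 659 exonic bases in Ndufb6 (with Smim27, on the opposite strand), 375 of 1251 in Ndufa13 (Tssk6, opposite strand) and 201 of 704 in Ndufb9 (Gm49356, same strand). Whether reads were counted by strand is not given in the sources used here, so reads of these genes and their neighbours cannot be told apart. The 22 members with no such overlap had a median of −0.58, with 16 lower and 2 higher.

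Complex I subunits have short mRNAs, and short mRNAs as a class were slightly lower in the Setd5+/- library. The median principal transcript of the members is 891.5 bases long, against 2624 over the tested genes. With the genes split by length into 10 bins of equal size, 25 of the 36 fall in the 2 shortest bins. Over all genes the median difference went from −0.12 in the shortest bin to 0.14 in the longest. In the 2 shortest bins together, 28.7% of all genes and 18 of 25 members were lower, with medians of −0.12 and −0.58. After recentring on genes of like length, 24 of the 36 members were lower and 3 higher, and their median was −0.43. After recentring on genes of like GC content, 24 were lower and 1 higher, with a median of −0.51. Ndufs1 turned from 0.08 to −0.01 with the latter and passed as higher with the former (0.12), while Ndufb3 did not pass with the latter (0.23).

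**Figure D4:**
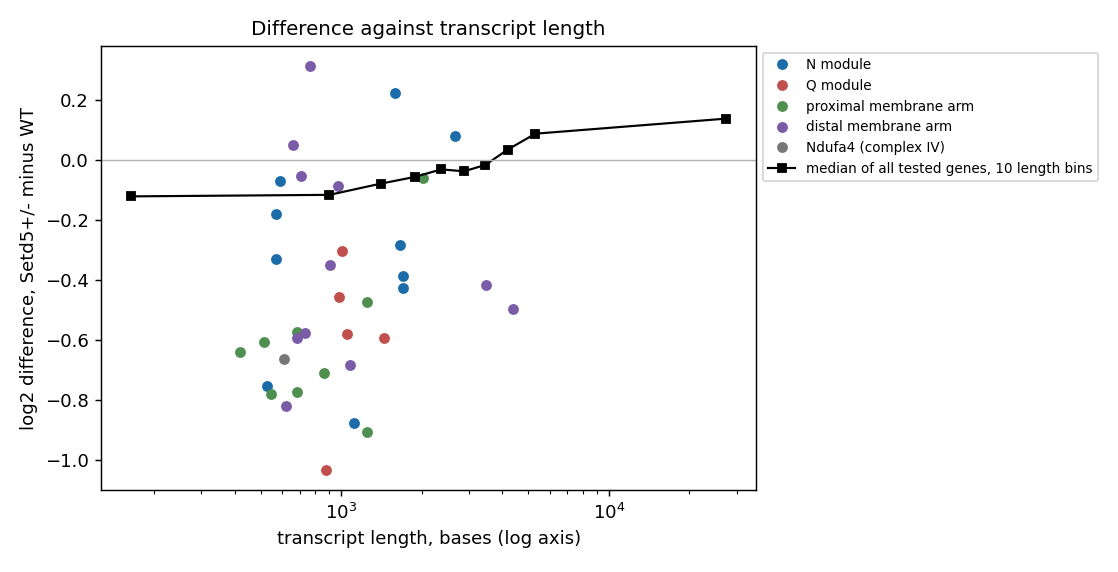
Log2 difference of each complex I subunit gene (y axis, Setd5+/- minus WT) against the length of its principal transcript (x axis, bases, log scale), coloured by module. Black squares give the median of all tested genes in each of 10 length bins, at the geometric middle of the bin, and run from −0.12 to 0.14. Most subunit genes lie below the black line at their length.

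Promoters were read for motifs of factors that are known to drive nuclear respiratory genes, since the members moved largely together. RefSeq windows from 250 bases before to 50 after the transcript start (GRCm38.p6) were held for 33 of the 36 members. The NRF1 core GCGCATGC, searched on both strands, occurred in 3 of the 33 (9.09%) and in a window of 3.05% of all 27025 genes. These 27025 are all genes with a window, including genes not tested here, whereas every member was tested, so the sets compared are not alike. The YY1 core AAGATGG occurred in 7 members (21.2%, against 7.28% of all genes), the ETS/GABP core CCGGAAG in 4 (12.1% against 9.93%), and the SP1 box GGGCGG in 15 (45.5% against 38.2%). In none of the 7 did the YY1 core lie wholly in the 250 bases before the start, so it reached into the 50 after it. The ERRa motif TCAAGGTCA was found in 0 members and in 0.466% of all genes. A match of letters is a description and does not show binding. The median difference was −0.59 with the YY1 core and −0.54 without it, −0.71 and −0.54 for the NRF1 core, −0.44 and −0.58 for the ETS/GABP core, and −0.47 and −0.58 for the SP1 box, so it was lower with some motifs and higher with others.

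The 3 members with the NRF1 core did not share a difference. Ndufa11 was at −0.78 and Ndufa8 at −0.71, while Ndufa6 was at −0.07 and did not pass. Their 250 bases before the start are given 5′ to 3′ on the strand of the gene, to show where the core lies, with the NRF1 core and SP1 box in capitals. They span chr17:56717512-56717761 (plus strand) for Ndufa11, chr2:36049339-36049588 (minus strand) for Ndufa8 and chr15:82354292-82354541 (minus strand) for Ndufa6. In Ndufa8 the core ends at the base before the start, and in Ndufa11 it occurs on both strands in overlap.
Ndufa11: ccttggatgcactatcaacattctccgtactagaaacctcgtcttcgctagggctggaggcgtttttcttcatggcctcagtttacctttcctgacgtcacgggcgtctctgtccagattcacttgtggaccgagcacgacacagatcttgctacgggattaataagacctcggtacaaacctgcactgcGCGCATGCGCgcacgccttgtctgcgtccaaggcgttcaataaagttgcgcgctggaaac
Ndufa8: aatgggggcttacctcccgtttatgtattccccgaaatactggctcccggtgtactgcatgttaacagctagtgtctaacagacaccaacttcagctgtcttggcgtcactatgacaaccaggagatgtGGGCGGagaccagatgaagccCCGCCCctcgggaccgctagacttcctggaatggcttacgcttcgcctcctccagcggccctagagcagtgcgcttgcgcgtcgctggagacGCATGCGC
Ndufa6: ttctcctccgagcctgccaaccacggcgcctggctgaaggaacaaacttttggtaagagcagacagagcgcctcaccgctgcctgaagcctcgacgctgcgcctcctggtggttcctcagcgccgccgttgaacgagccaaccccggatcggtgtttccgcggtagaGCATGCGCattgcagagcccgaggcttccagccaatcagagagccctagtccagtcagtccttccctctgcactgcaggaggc

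The mitochondrially encoded subunits of the same complex differed little between the libraries. Of 7 genes, 5 could be tested, of which 2 were lower and 2 higher, with a median of −0.02. The lowest was mt-Nd5 at −0.20 (−0.22 to −0.18) and the highest mt-Nd4 at 0.08 (0.055 to 0.10), so the differences that passed were small. Nd2, Nd4 and Nd5 are the antiporter-like pumps of the membrane arm. The assembly factors, which join the subunits but stay out of the finished complex, were mixed. Of 14 tested, 9 were lower and 1 higher, with a median of −0.37. Ecsit fell the most (−0.91, −1.16 to −0.665), followed by Ndufaf8 (−0.86) and Ndufaf2 (−0.81), which is related to Ndufa12. Ndufaf3, an early factor for the Q module, rose (0.656, 0.39 to 0.925).

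The nuclear genes of the other respiratory complexes were mostly lower too. Of complex II 3 of 4 subunit genes were lower and 1 higher, with a median of −0.62. Of complex III 8 of 9 were lower and none higher, with a median of −0.77. Of complex IV 12 of 14 were lower and 1 higher (−0.65), and of complex V 12 of 16 lower and none higher (−0.61). Beside these, the median of complex I was −0.49 over all members and −0.58 outside chromosome 1. The medians of complexes II and IV still hold their chromosome 1 genes, Sdhc (−0.68) and Cox5b (−0.24). The differences between complexes were not tested. Of 9 genes for regulators of respiratory gene transcription, 8 were lower and none higher. The largest falls were those of Esrra (−1.06), Pprc1 (−1.03) and Ppargc1a (−0.72), while Nrf1 (−0.25), Gabpa (−0.24) and Yy1 (−0.14) were lower by less.

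**Figure D5:**
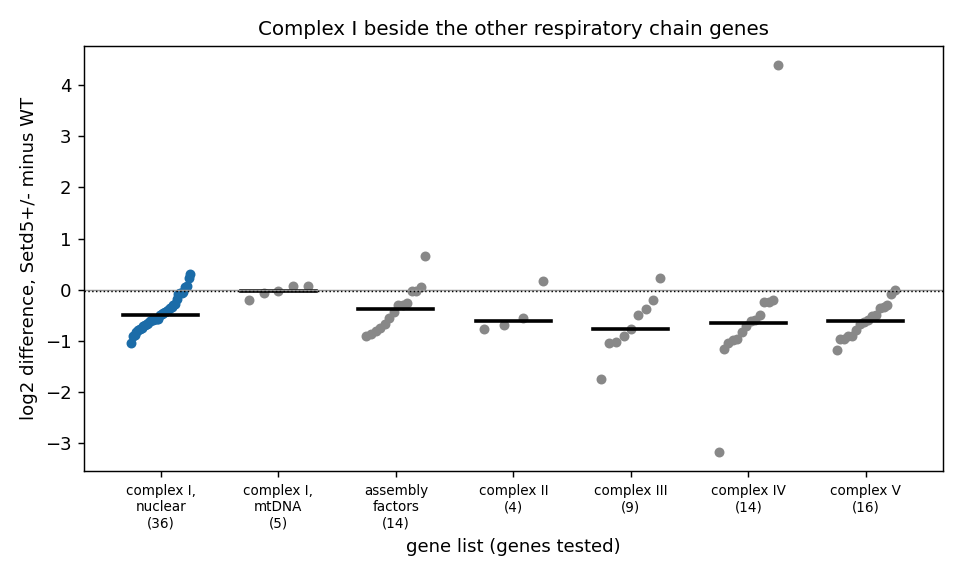
Log2 difference (y axis, Setd5+/- minus WT) of each tested gene of complex I, its mitochondrially encoded subunits, its assembly factors and the nuclear subunits of complexes II to V (x axis, number tested in brackets). Bars are medians, and the dotted line is the median of all tested genes. The bars of the nuclear subunits lie between −0.77 and −0.49, and that of the mitochondrially encoded complex I genes at −0.02. The point far above complex IV is Cox6a2, at 2.21 normalized counts in WT and 64.3 in Setd5+/-.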

How the data were processed

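RNA of adherent NSCs was made into TruSeq libraries and sequenced from both ends. Per the labels and methods, the authors trimmed reads with Trimmomatic, aligned them to mm10 with Bowtie2 and used DESeq2; the read counter and its use of strand are not given in the sources used here. The authors deposited normalized counts, that is, reads per gene divided by a size factor per sample, in a table that had lost decimal points. These were restored from what 1 read is worth in each sample (0.827 to 0.829 in WT, 1.19 in Setd5+/-), which alone gave the deposited mean in 51322 of 52438 rows. In the other 1116 rows, among them 1 member (Ndufa6), the deposited mean and the closest samples decided where a point lay. The authors' own fold changes and p-values in that table were not used. Because the reads per gene were inferred from these values, no count model was fitted.

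The limma package (3.58.1, R 4.3.3) compared log2(normalized count + 1) in genes with a mean of at least 10, with a trend and Benjamini-Hochberg adjustment over all 16266 genes at 0.05. Intervals (95%) take a variance of 1.935 times the reads. Lengths, exons and pseudogenes (BLAST+ 2.17.0) are from GENCODE M21. Scripts were tested on simulated data. Per-sample values were given for core subunits, module extremes and chromosome 1 members. 1 gene that the rule takes is not reported here. It stayed in the fit over all genes and is in no count, median or plot of the members. Members, lists and motifs were chosen with earlier results of these data known.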

Additional observations from a re-analysis of the deposited data

How the results depend on the processing

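Each of the 5 summaries was recomputed under 20 alternatives, of which 3 (members without a near-identical pseudogene, members without exonic overlap, and pseudogene values added to their gene) were chosen after seeing the data. The number of members lower was 23 to 26 when each sample was left out in turn, the number higher 2, the number at least 1.5-fold lower 13 to 17, the number at least 1.5-fold higher 0 and the median −0.52 to −0.46. After recentring by transcript length 8 members were at least 1.5-fold lower and the median was −0.43, where the cause was not tested. With recentring by GC content, and with pseudogene values added, 1 member was higher. Outside chromosome 1, 1 member was higher and the median was −0.58. Among members without a near-identical pseudogene 17 were lower, 1 higher and 9 at least 1.5-fold lower, of 23. Among those without exonic overlap 16 were lower, of 22, with a median of −0.58. The last 3 settings hold fewer members by construction. TMM and upper-quartile scaling gave 27 and 26 lower, and pseudocounts of 0.5 and 5 gave 25 and 26. No filter gave 25 of 36, and a mean of at least 50, which kept fewer members, gave 25 of 33. The median of all genes moved by at most 0.03. Of 223 values of the 14 named members, 211 kept direction and side of the threshold and 1 reversed, Ndufs1 at −0.0086 after recentring by GC content, where the cause was not tested.

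The replicate block left the counts at 26 lower and 2 higher and changed no call. Samples with the same number did not deviate together (correlations −0.00705 to 0.0049), so the numbers do not pair the samples. The planned edgeR and DESeq2 fits were not run, because the deposited values are not raw counts. Members with few reads on the gene itself, such as Ndufb4, Ndufa12, Ndufs5 and Ndufs6, are measured less closely. In WT the pseudogenes of Ndufa12, Ndufs5 and Ndufs6 held higher values than the gene. With 1 library per genotype the spread between cultures and clones is unmeasured.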
